A study of Arabidopsis thaliana with 21 samples.

Results

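Dark-grown Arabidopsis seedlings were followed through 18 more hours of darkness by comparing 3 arrays of wild type taken after 4 days and 18 h in the dark (WT_D18) with 3 arrays taken after 4 days (WT_D0). These are 6 of the 21 arrays of the study, chosen by their labelled genotype and time in the dark. Each array holds 1 sample of whole etiolated seedlings of ecotype Col-0. The medium held no sucrose. Before the dark growth at 21 °C all seeds had 4 days of cold at 4 °C and a 3 h pulse of white light that starts germination. Wild type after 4 days and 1 h of darkness (WT_D1) and wild type moved at 4 days to 18 h of continuous red light (WT_R18), 3 arrays each, are given beside the comparison. The labels call the 3 samples of a group biological replicates and do not say whether they were grown apart, so the p-values measure the spread between these samples. The other groups of the study, 1 h of red light in wild type and the pif3 mutant in darkness at both early times, entered the fit for its estimate of the spread.

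A seedling that germinates underground lives on the oil and protein laid down in its seed. It elongates its hypocotyl, keeps a closed apical hook and holds its plastids as etioplasts until light reaches it. When the reserves run out without light, plant cells turn to the breakdown of protein, branched-chain amino acids and membranes, and this carbon-starvation programme includes autophagy. The comparison asks which transcripts differ when the seedlings stay in the dark for the same 18 h that other seedlings spent in red light.

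The deposited medians of the 9 wild-type dark arrays ran from 40.97 to 103 intensity units, highest in WT_D0 replicate 1, so all arrays were quantile normalized before the test. The signal of the 25S rRNA control probe set was 623.9 in WT_D0 replicate 1 against 4776 and 4927 in the other WT_D0 arrays, and 365.2, 4305 and 2043 in the 3 WT_D18 arrays. For the GAPDH control, whose 3' signal over 5' signal measures RNA integrity, that ratio was 1.46 to 1.70 in WT_D0 and 1.44 to 1.5 in WT_D18. Across probe sets, arrays of WT_D0 correlated with each other at r of 0.981 to 0.985 and those of WT_D18 at 0.987 to 0.992. The median SD within the group was 0.17 on the log2 scale in WT_D0, 0.129 in WT_D1 and 0.119 in WT_D18. On the first principal component of the 9 dark arrays, which held 28.8% of the variance, the WT_D18 arrays lay at 7.09, 37.06 and 14.73. The WT_D0 arrays lay at 0.70, 9.20 and -22.05 and the WT_D1 arrays between -24.04 and -10.47, so WT_D0 replicate 2 fell among the WT_D18 arrays on this axis. The genes that lead it include AT1G26380 and CCOAMT, whose name stands for a caffeoyl-CoA methyltransferase. CCOAMT measured 43.4, 378.8 and 28.2 units in WT_D0 and 92.7, 513.3 and 136.8 in WT_D18, so replicate 2 was the highest array in both groups. The part of these array differences in the results below was not tested beyond the alternatives given beside them.

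**Figure D1:**
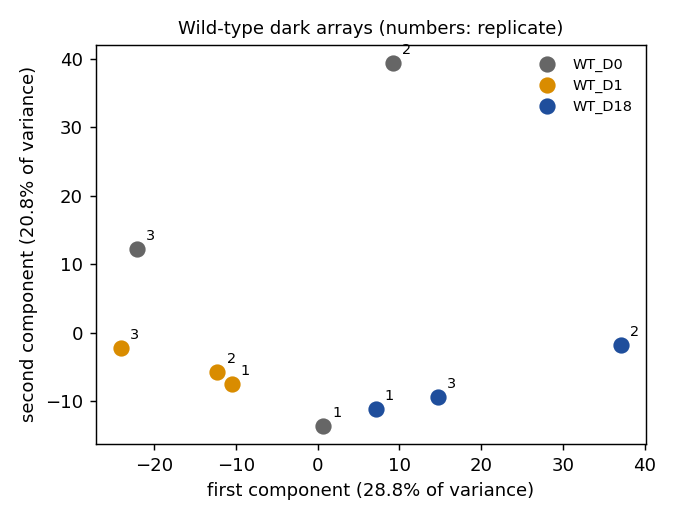
First (28.8% of variance) against second (20.8%) principal component of the normalized log2 values of the 9 wild-type dark arrays, 1 dot per array with its replicate number. The WT_D18 arrays lie to the right of all WT_D1 arrays, while WT_D0 is spread along both axes, with replicate 2 far above the rest.

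Over 18 h of further darkness few transcripts moved past the test. Of 22746 probe sets, 10 were called between WT_D18 and WT_D0 at an adjusted p under 0.05 (0.044%; limma, Benjamini-Hochberg), 4 higher and 6 lower. At an unadjusted p under 0.05 there were 3019 (13.3%). The median change over all probe sets was 0 on the log2 scale, with the 5th percentile at -0.36 and the 95th at 0.37. Between WT_R18 and WT_D0, the same interval spent in red light with the same starting arrays, 7378 probe sets were called (32.4%), and those percentiles were -0.76 and 0.99. Between WT_R18 and WT_D18 there were 7828 (34.4%).

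On the log2 scale used, the intervals of most probe sets excluded a change of 2-fold. For 21452 probe sets (94.3%) the 95% interval of the WT_D18 minus WT_D0 change lay inside 2-fold in both directions, and this held for 12250 of the 12723 with a mean intensity of at least 50 units (96.3%). That scale adds an offset to each value and understates changes of dim probe sets. For those under 50 units, such an interval need not exclude a 2-fold change in signal. Nor do the intervals show that the test would call a change of 2-fold. A change of 2-fold or more was estimated for 38 probe sets upward and 21 downward, of which the test called 2, both upward. The median standard error of a change was 0.14 on the log2 scale, and the called changes lay several standard errors from 0. AT1G42960 passed at -0.25 with an SE of 0.04, while AT5G39520 at 0.96 with an SE of 0.21 did not (limma, adjusted p = 0.042 and 0.12). With 3 arrays a group, changes of several times 0.14 could thus go uncalled for a typical probe set. An uncalled change is not shown to be absent.

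The 4 probe sets that rose have no gene named in the annotation used here and are given by their identifiers. Probe set 262630_at measured 45.2, 33.0 and 25.6 units in WT_D0 and 82.5, 118.7 and 86.9 in WT_D18. Every WT_D18 array lay above every WT_D0 array, and the change was 1.15 ± 0.17 (SE) on the log2 scale (limma, adjusted p = 0.037). After 1 h of darkness it stood at 36.5 ± 1.62 (SD, n = 3) and after 18 h of red light at 37.6 ± 2.90 (SD, n = 3), so the rise was seen in the late dark arrays alone of these 4 groups. Probe set 259517_at behaved alike at a higher level, with 370.3, 368.8 and 342.3 units in WT_D0 and 542.9, 666.4 and 564.1 in WT_D18. Its change was 0.69 ± 0.10 (SE) (limma, adjusted p = 0.037), and it measured 323.3 units after 1 h of darkness and 322.8 in red light. Neither probe set overlapped between the 2 groups.

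For the other increases the red-light arrays stood near WT_D18. Probe set 266155_at measured 72.9, 48.7 and 64.1 units in WT_D0 and 117.5, 162.9 and 140.3 in WT_D18, a change of 1.01 ± 0.14 (SE) (limma, adjusted p = 0.037). It stood at 99.2 ± 16.7 (SD, n = 3) after 1 h of darkness and at 132.9 ± 0.941 (SD, n = 3) in red light. Probe set 252414_at measured 145.7, 158.0 and 151.9 units in WT_D0 and 210.6, 186.6 and 200.8 in WT_D18, a change of 0.36 ± 0.05 (SE) (limma, adjusted p = 0.037). Its mean was 180.2 after 1 h of darkness and 198.7 in red light. For both, the difference between WT_R18 and WT_D18 did not pass the test, at -0.06 and -0.004 on the log2 scale (limma, adjusted p = 0.83 and 1).

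Of the 6 decreases, 4 are in named genes. NRPB9A, a subunit of RNA polymerase II, measured 22.0, 29.1 and 42.1 units in WT_D0 and 7.77, 8.31 and 9.46 in WT_D18. It fell by 0.92 on the log2 scale (SE 0.15; limma, adjusted p = 0.042), a size that rests on the offset of 16 because the WT_D18 mean lies under it. The 1 h dark arrays lay between, at 18.6 ± 4.86 (SD, n = 3), and red light gave 14.03 ± 1.70 (SD, n = 3). The gene is dim throughout, and no group reached a mean of 50 units.

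AT2G02880 measured 62.0, 63.0 and 70.3 units in WT_D0 and 46.3, 46.6 and 46.7 in WT_D18, a change of -0.37 ± 0.06 (SE) (limma, adjusted p = 0.037). It already measured 46.2 ± 1.84 (SD, n = 3) after 1 h of darkness, so WT_D0 alone stood apart among the dark groups. AT3G56480 measured 521.6, 544.4 and 541.5 units in WT_D0 and 472.7, 424.4 and 411.6 in WT_D18, a change of -0.29 ± 0.05 (SE) (limma, adjusted p = 0.042). The 1 h dark arrays, at 534.7 ± 12.1 (SD, n = 3), were close to WT_D0, and the WT_D18 minus WT_D1 difference of -0.29 was called as well (limma, adjusted p = 0.043). In red light it was lower still, at 371.1 ± 21.7 (SD, n = 3).

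AT1G42960 measured 1396, 1454 and 1438 units in WT_D0 and 1199, 1193 and 1201 in WT_D18. The change of -0.25 ± 0.04 (SE) was the smallest of the 10 (limma, adjusted p = 0.042). The 1 h dark mean was 1322 and the red-light mean 1698, so 18 h of darkness and 18 h of red light left it on opposite sides of WT_D0. The unnamed probe set 254938_at did the same, with means of 234.5 in WT_D0, 186.5 in WT_D18 and 343.4 in WT_R18, and a dark change of -0.31 ± 0.05 (SE) (limma, adjusted p = 0.042). The last decrease was 253923_at, with 154.5, 160.6 and 172.5 units in WT_D0 and 107.2, 113.3 and 124.5 in WT_D18, a change of -0.45 ± 0.07 (SE) (limma, adjusted p = 0.042). In all 6 the WT_D0 and WT_D18 arrays did not overlap. Over all probe sets 8.57% lay apart upward and 8.84% downward.

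**Figure D2:**
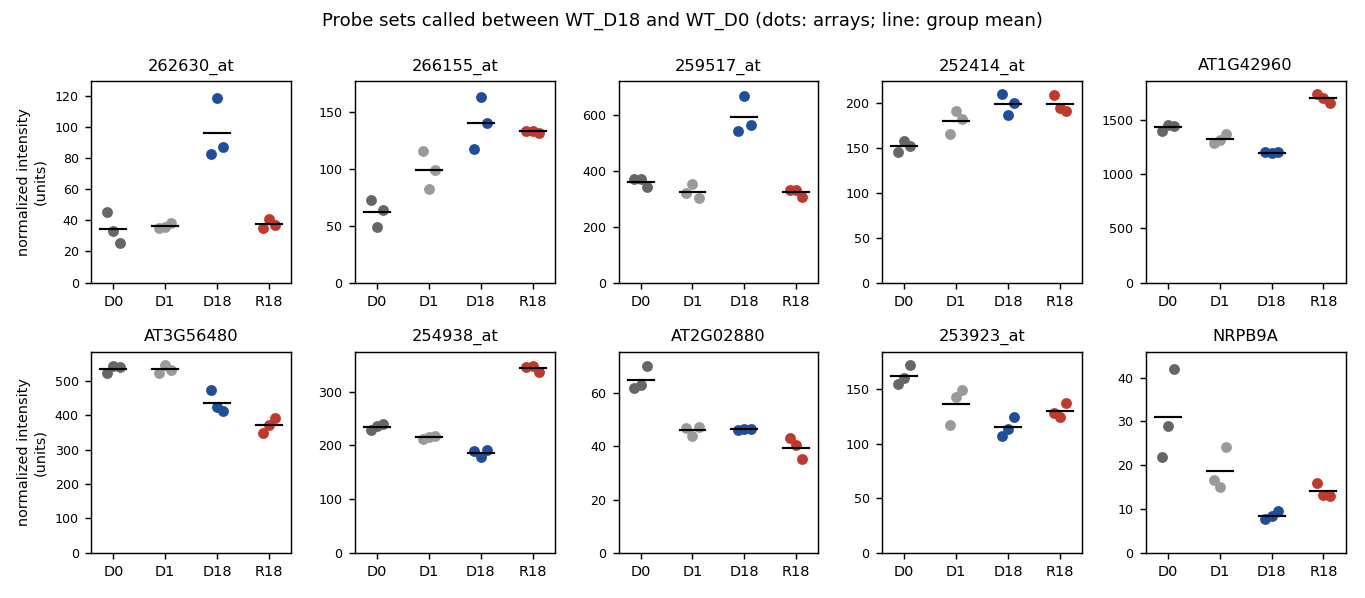
Normalized intensity (units, y axis from 0) of the 10 probe sets called between WT_D18 and WT_D0, in WT_D0, WT_D1, WT_D18 and WT_R18. Dots are arrays and lines are means of 3. Probe sets 262630_at and 259517_at stand high in WT_D18 only of these 4 groups, and AT1G42960 and 254938_at lie lowest in WT_D18 and highest in WT_R18.

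How many probe sets passed depended on single arrays. Without WT_D0 replicate 1, 575 were called (2.53%), 348 higher and 227 lower, and these included all 10. Without WT_D0 replicate 3, WT_D18 replicate 2 or WT_D18 replicate 3 it was 0 each, without WT_D0 replicate 2 it was 2 and without WT_D18 replicate 1 it was 4. It was also 0 without scaling between arrays, with only the 6 arrays compared and with the 25S rRNA signal in the fit. Without replicate 1 the median SD of WT_D0 fell from 0.17 to 0.124, while the median standard error went from 0.14 to 0.152, since only 2 arrays of the group were left. All 575 had the same sign with every array in the fit, but that fit holds the arrays that picked them. Between WT_D18 and WT_D1, 261 of the 575 had the same sign at an unadjusted p under 0.05 (limma). Of all named genes, 6.93% were higher and 7.78% lower at that level, and this comparison shares the WT_D18 arrays.

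**Figure D3:**
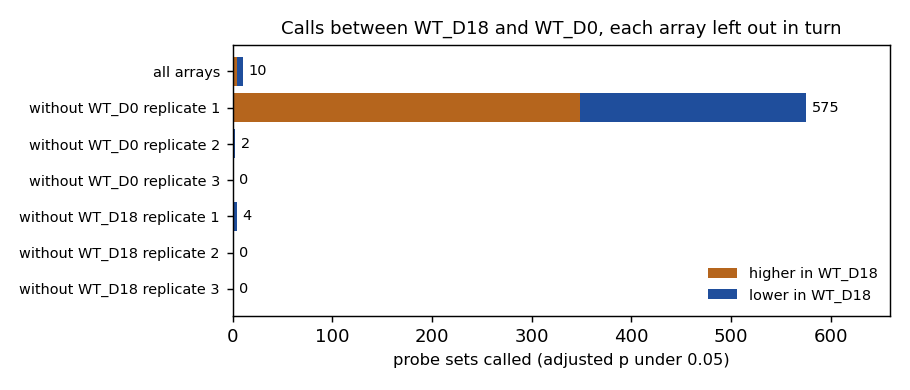
Number of probe sets called between WT_D18 and WT_D0 (adjusted p under 0.05, x axis from 0) with all arrays and with each of the 6 arrays left out, split by direction. All arrays gave 10 and the fit without WT_D0 replicate 1 gave 575, against 0 to 4 for the other 5.

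Set against the 1 h dark arrays, WT_D18 gave a similar count. Between WT_D18 and WT_D1, 12 were called (0.0528%), 9 up and 3 down, and between WT_D1 and WT_D0 limma called 0, with 1693 at an unadjusted p under 0.05 (7.44%). These comparisons share arrays with WT_D18 minus WT_D0. UBC31, a ubiquitin-conjugating enzyme, measured -6.98, 3.66 and 0.375 units in WT_D1 and 24.9, 50.7 and 24.7 in WT_D18, a change of 1.48 on the offset scale (limma, adjusted p = 0.029). In WT_D0 it measured 17.6, 12.6 and 1.77 units, and the change from there was 0.90 (limma, adjusted p = 0.12). FACT, a fatty alcohol caffeoyl transferase of suberin-associated waxes, measured 23.3, 22.7 and 18.7 units in WT_D1 and 8.11, 7.47 and 8.02 in WT_D18, a change of -0.65 (limma, adjusted p = 0.037). From WT_D0, at a mean of 17 units, the change was -0.46 (limma, adjusted p = 0.11). The other named genes were AT2G38790, AT5G60260, AT3G19900 and AT1G02020, which rose, and AT3G56480 and AT4G30460, which fell.

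WT_D18 against both early dark groups, a comparison added after the data had been seen, gave 46 called probe sets (0.202%), 22 upward and 24 downward. The genes named here were chosen after their values were seen. UBC31, AT5G39520, AT2G38790 and CLE44 were among the increases. CLE44 encodes a peptide signal that keeps vascular stem cells dividing, and its mean was 96.7 units in WT_D0, 82.0 in WT_D1 and 176.5 in WT_D18 (log2 change 0.86; limma, adjusted p = 0.049). In red light it was 80.0. Among the decreases were FACT, NRPB9A and VPS2.2, a subunit of the endosomal sorting complex, with 52.9, 55.9 and 31.7 units in WT_D0, WT_D1 and WT_D18 (log2 change -0.56; limma, adjusted p = 0.034). VPS2.2 measured 113.4 units in red light. AT1G56190 fell from 437.8 and 468.5 units to 263.9 (log2 change -0.74; limma, adjusted p = 0.044) and AT4G21870 from 221.0 and 226.7 to 141.7 (log2 change -0.60; limma, adjusted p = 0.030). In red light these genes stood at 1123 and 635.1 units. The count of 46 was 0 without scaling or with the replicate number as a block, 6 in the 9 dark arrays alone, 10 with the 25S rRNA signal in the fit, 202 among probe sets of at least 50 units and 668 with array weights. Without WT_D0 replicate 1 it was 602, without WT_D0 replicate 2 or 3 it was 7 or 6, without WT_D1 replicate 2 or 3 it was 23 or 10, and without WT_D18 replicate 1, 2 or 3 it was 8, 0 or 0.

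Gene lists were then described for the reserves, for starvation and for the processes that light switches. A gene is called measured where a probe set named for it was found, as for 2 of 40 clock entries and 3 of 21 Calvin cycle entries. The other entries were left out whatever their signal, so their absence says nothing about expression. Genes were matched to lists by name or synonym, so a list can lack measured genes of its process that carry only a locus identifier. The test called 0 of the members in every list below (limma). Counts at an unadjusted p under 0.05 are given instead, beside 5.88% of 13350 named genes higher and 6.51% lower at that level. Some members are also given as called without WT_D0 replicate 1, a setting that called 2.53% of all probe sets. For each of them it was the only setting, of 16 or 17 alternatives run, that called the gene. In whole seedlings, fewer cells of a type and less RNA per cell cannot be told apart.

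Of 22 entries for seed storage and oil body genes 2 were measured, and transcripts of both were still abundant after 4 days and 18 h in the dark. PAP85, a vicilin-like storage protein, measured 1377, 823.6 and 1479 units in WT_D0 and 2143, 1495 and 2089 in WT_D18. The groups did not overlap, and the difference of 0.66 on the log2 scale had a 95% interval of 0.01 to 1.3 and did not pass (limma, adjusted p = 0.36). OLEO3, an oleosin that coats oil bodies, measured 580.1, 590.3 and 757.2 units in WT_D0 and 540.7, 461.5 and 527.3 in WT_D18, a difference of -0.32 with an interval of -0.61 to -0.02 (limma, adjusted p = 0.34). In red light PAP85 stood at 133.4 ± 57.4 (SD, n = 3) and OLEO3 at 75.3 ± 12 (SD, n = 3). Against WT_D18 these were changes of -3.75 and -2.53 on the log2 scale (limma, adjusted p = 1.1e-07 and 2.1e-09), and 12.4% of all named genes were higher and 19.2% lower in that comparison.

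Late embryogenesis abundant proteins protect drying seeds, and 9 genes of the list made for them were measured. The counts here are for that list and not for the whole family. Their median difference between WT_D18 and WT_D0 was 0.32, beside 0 for all named genes, with 7 of 9 positive. At an unadjusted p under 0.05, 1 was higher (M17) and 2 were lower (AT2G44060 and AT2G46140). M17 measured 335.9, 294.3 and 209.4 units in WT_D0 and 333.6, 339.3 and 631.6 in WT_D18, so the groups overlapped and 1 array of WT_D18 stood far above the rest. AT2G44060, with the smallest p, differed by -0.21 (limma, adjusted p = 0.30). Array by array, the list's median was 0.26, -0.35 and 0.10 in WT_D0 and 0.36, 0.05 and 0.54 in WT_D18, as deviations on the log2 scale. Without WT_D0 replicate 2 the median difference was 0.10. In red light 7 of the 9 fell and 1 rose against WT_D18, with a median of -1.03.

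Of the oil breakdown genes 3 were measured. SDP1, the lipase that starts the breakdown of stored triacylglycerol, measured 693.3, 478.8 and 619.1 units in WT_D0 and 791.2, 833.7 and 713.0 in WT_D18. The groups did not overlap and the difference was 0.39 ± 0.10 (SE; limma, adjusted p = 0.17). It was 0.50 and was called without WT_D0 replicate 1 (limma, adjusted p = 0.021). ICL, isocitrate lyase of the glyoxylate cycle, which turns fatty acid carbon into sugar precursors, measured 5410, 6443 and 7312 units in WT_D0 and 5975, 4684 and 6076 in WT_D18, with overlapping groups and a difference of -0.19 (limma, adjusted p = 0.53). ICL was 3256 ± 359 (SD, n = 3) in red light, a fall of -0.77 against WT_D18 (limma, adjusted p = 0.00017). AIM1, a multifunctional enzyme of peroxisomal beta-oxidation, differed by 0.05 between the dark times with a 95% interval of -0.12 to 0.21.

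Genes that rise when plant cells lack carbon were at or slightly above their WT_D0 level. All 9 measured members differed upward, with a median of 0.15 on the log2 scale and a range of 0.03 to 0.81, and 3 passed an unadjusted p of 0.05 (HIS1-3, ETFBETA and PPDK). HIS1-3, a linker histone induced by drought, measured 1149, 456.3 and 666.9 units in WT_D0 and 1242, 1133 and 1378 in WT_D18. Replicate 1 of WT_D0 lay inside the range of WT_D18 and the other 2 far below it, and the difference was 0.81 ± 0.31 (SE; limma, adjusted p = 0.28). PPDK, pyruvate orthophosphate dikinase, which feeds carbon from amino acids into sugar synthesis, measured 1962, 2289 and 1444 units in WT_D0 and 2183, 2503 and 2249 in WT_D18, a difference of 0.30 (limma, adjusted p = 0.32).

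The leucine breakdown enzymes of that list stayed within narrow limits. IVD, isovaleryl-CoA dehydrogenase, measured 2824, 2855 and 2902 units in WT_D0 and 2948, 2896 and 2908 in WT_D18, a difference of 0.03 with a 95% interval of -0.12 to 0.18. MCCA and MCCB, the subunits of methylcrotonyl-CoA carboxylase, differed by 0.06 and 0.19. ETFBETA and ETFQO, which pass electrons from this breakdown to the respiratory chain, differed by 0.23 and 0.05. All 9 members of the list fell in red light against WT_D18, with a median of -0.70, and IVD then measured 1801 ± 107 (SD, n = 3).

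Of 13 senescence and autophagy genes, 11 differed upward, the median was 0.14 and 3 passed an unadjusted p of 0.05, all upward (ATG8C, ATG8B and SAG101). ATG8 proteins are the ubiquitin-like tags that build the autophagosome membrane. ATG8C measured 935.9, 611.2 and 716.4 units in WT_D0 and 919.4, 979.8 and 925.5 in WT_D18, so WT_D0 replicate 1 reached the WT_D18 level (difference 0.33; limma, adjusted p = 0.24). Without that array the difference was 0.50 and was called (limma, adjusted p = 0.013), the only setting of 17 alternatives that called it. SAG29, a sugar transporter of senescent leaves, differed in the other direction by -0.62 at a level of 23.8 and 10.6 units. The list's median was 0.26 without WT_D0 replicate 1, 0.06 without replicate 2 and 0.08 without replicate 3 of that group. In red light 9 of the 13 fell and 1 rose against WT_D18.

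**Figure D4:**
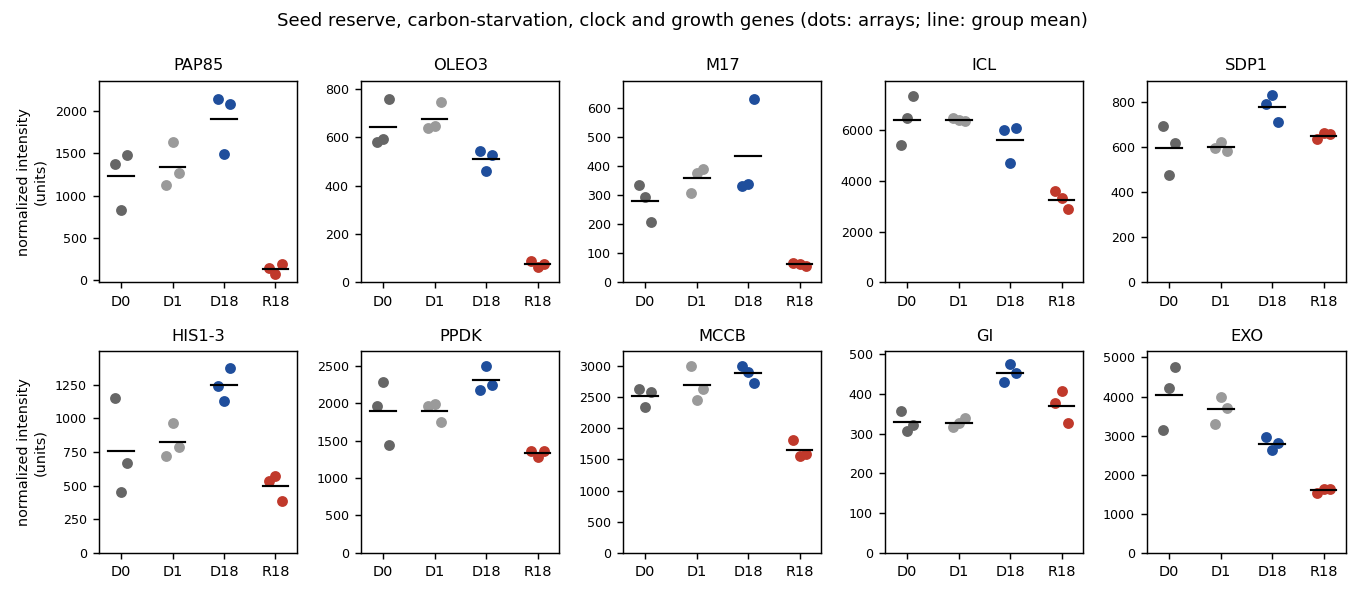
Normalized intensity (units, y axis from 0) of storage and protective genes (PAP85, OLEO3, M17), oil breakdown (ICL, SDP1), carbon starvation (HIS1-3, PPDK, MCCB), the clock gene GI and the growth gene EXO. Dots are arrays and lines are means of 3. The dark groups overlap for ICL, and the WT_D18 arrays of MCCB lie above those of WT_D0 but not above all WT_D1 arrays, while WT_R18 lies below the dark groups for both. By contrast the WT_D18 arrays of OLEO3, SDP1, GI and EXO lie apart from all arrays of both early dark groups.

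Nuclear photosynthesis genes stood near their WT_D0 level. The 3 antenna genes LHCB4.1, LHCB4.2 and LHCB4.3, which encode a minor light-harvesting protein of photosystem II, differed by -0.10, 0.16 and 0.04 between WT_D18 and WT_D0, and all 95% intervals lay within -0.28 and 0.32. The 5 nuclear photosystem and ATP synthase genes differed by -0.09 to 0.18, with intervals within -0.38 and 0.44. At an unadjusted p under 0.05 limma gave 0 of these 8 in either direction. In red light 7 of the 8 rose against WT_D18 and ATPC2 fell.

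The 3 genes measured from the Calvin cycle list, which does not cover the whole cycle, all differed downward. SBPASE, sedoheptulose bisphosphatase, measured 474.6, 705.7 and 776.3 units in WT_D0 and 585.7, 293.4 and 483.2 in WT_D18, with overlapping groups and a difference of -0.53 (limma, adjusted p = 0.30). PRK, phosphoribulokinase, differed by -0.31 and RCA, rubisco activase, by -0.21. Of 9 tetrapyrrole genes, which make the precursors of chlorophyll, 8 differed downward with a median of -0.18. CHLI2, a subunit of magnesium chelatase, measured 92.9, 167.7 and 130.6 units in WT_D0 and 88.4, 73.4 and 104.1 in WT_D18 (difference -0.46; limma, adjusted p = 0.32). PORB, a protochlorophyllide oxidoreductase, was at 3065 units in WT_D0 and 2370 in WT_D18 (difference -0.37; limma, adjusted p = 0.44). Against WT_R18 all 3 Calvin genes and 6 of the 9 tetrapyrrole genes were called, higher in red light. The tetrapyrrole median between the dark times was -0.33 without WT_D0 replicate 1, and the Calvin median was -0.11 without WT_D0 replicate 3 and -0.14 without WT_D18 replicate 2.

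Plastid-encoded transcripts were the largest list, and it also had the most members at an unadjusted p under 0.05. As a share its upward count was not the highest, since 3 of 9 carbon-starvation genes passed upward. Of 69, 58 differed upward, the median was 0.18, 15 passed upward and 1 downward (psbA, of the photosystem II reaction centre, at -0.41). The ribosomal protein gene rps3 had the smallest p: it measured 1697, 1224 and 1217 units in WT_D0 and 2357, 2145 and 2413 in WT_D18 (difference 0.75; limma, adjusted p = 0.11). After only 1 h of further darkness it measured 2474, 2023 and 2933 units, already at the WT_D18 level. WT_D0 was also the lowest group for atpA, an ATP synthase subunit, with means of 2919, 4087 and 3774 in WT_D0, WT_D1 and WT_D18, and for rpl32, another ribosomal protein gene, with 742.3, 1509 and 1315. Between WT_D1 and WT_D0 the list's median was 0.34 with 23 members higher and 0 lower at that p, beside 3.6% and 3.62% of all named genes. Between WT_D18 and WT_D1 it was -0.15 with 0 higher and 2 lower, beside 6.93% and 7.78%. Without WT_D0 replicate 1 the median between WT_D18 and WT_D0 was 0.08, and rps3 (0.91; limma, adjusted p = 0.010) and psbJ (0.54; limma, adjusted p = 0.036), of photosystem II, were called. Without WT_D0 replicate 2 the median was 0.33. As deviations on the log2 scale the list's median was -0.12, 0.28 and -0.11 in the WT_D0 arrays and 0.14 to 0.23 in the WT_D18 arrays.

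**Figure D5:**
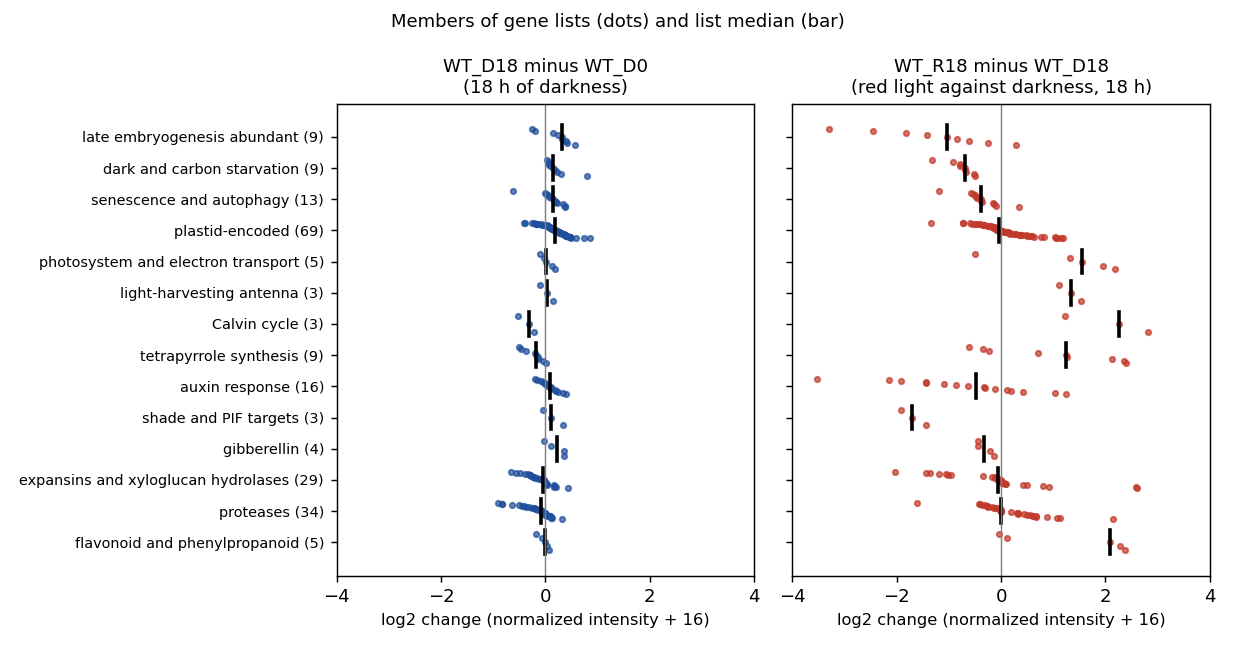
Log2 change of each member (dots) and the median (bar) of 14 gene lists, WT_D18 minus WT_D0 on the left and WT_R18 minus WT_D18 on the right, on the same x axis. The number measured is in brackets. Most dark differences lie within 0.5 of 0, while red light moved members of the photosynthesis lists upward and of the late embryogenesis and starvation lists downward. The panels share the WT_D18 arrays.

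GI (GIGANTEA), a clock-controlled gene that also acts in flowering and light signalling, was 1 of 2 measured members of the clock list. It measured 355.9, 306.8 and 322.7 units in WT_D0, 316.7, 326.1 and 340.1 in WT_D1 and 430.4, 474.0 and 452.7 in WT_D18. All WT_D18 arrays lay above all 6 early arrays. The difference from WT_D0 was 0.44 ± 0.10 (SE; limma, adjusted p = 0.13) and that from WT_D1 0.45 (limma, adjusted p = 0.10), so neither passed. Without WT_D0 replicate 1 the first was 0.50 and was called (limma, adjusted p = 0.037). In red light GI was 370.4 ± 40.3 (SD, n = 3). SNZ, the other measured member, a flowering repressor, was at or near 0 in the dark arrays and at 101.8 ± 11.2 (SD, n = 3) in red light. The samples of WT_D0 and WT_D18 differ by 18 h of clock time as well as of age, and these cannot be told apart.

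Among growth hormone genes limma called 0. EXO, a brassinosteroid-induced growth protein, measured 3147, 4228 and 4747 units in WT_D0 and 2954, 2629 and 2804 in WT_D18. The groups did not overlap and the difference was -0.51 ± 0.13 (SE; limma, adjusted p = 0.16). Without WT_D0 replicate 1, the lowest array of its group, it was -0.68 and was called (limma, adjusted p = 0.011). EXO was lower in red light, at 1596 ± 60.4 (SD, n = 3). The gibberellin receptors GID1C and GID1A differed by 0.35 and 0.37 (limma, adjusted p = 0.17 and 0.21), GID1B by 0.11 and SLY1, which targets the DELLA repressors for destruction, by -0.03. GID1A was called without WT_D0 replicate 1, at 0.51 (limma, adjusted p = 0.023). GID1C measured 129.2, 158.6 and 119.4 units in WT_D0 and 175.4, 173.4 and 180.8 in WT_D18, and the groups did not overlap. EIN3, the transcription factor of ethylene signalling that shapes the hook, measured 1779, 1730 and 1737 units in WT_D0 and 2097, 2053 and 2028 in WT_D18, also without overlap (difference 0.23; limma, adjusted p = 0.22).

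Of 16 auxin response genes, 11 differed upward with a median of 0.08, and 2 passed an unadjusted p of 0.05 upward, IAA18 and WES1. IAA18, an Aux/IAA repressor, had the smallest p, with a difference of 0.24 (limma, adjusted p = 0.30). WES1, an enzyme that conjugates auxin, differed by 0.35 (limma, adjusted p = 0.37). The list's median was 0.18 without WT_D0 replicate 1, 0.02 without WT_D0 replicate 3 and 0.05 without WT_D18 replicate 2. The 3 shade and phytochrome-interacting-factor target genes, which stand high in darkness, differed by 0.34 (FHL), 0.11 (IAA29) and -0.04 (HAT2). FHL helps carry phytochrome A into the nucleus, and without WT_D0 replicate 1 it was called, at 0.53 (limma, adjusted p = 0.012). All 3 fell in red light against WT_D18, by 1.44 to 1.91 on the log2 scale. HYH, a bZIP factor of light signalling, stood at 2.93 ± 3.13 units (SD, n = 3) in WT_D0 and 6.10 ± 2.68 (SD, n = 3) in WT_D18, near 0 in both, and at 218.4 ± 21.3 (SD, n = 3) in red light.

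Wall, protease, tubulin and sugar genes are given by list counts and single members, of which some overlapped between the groups. Of 34 protease genes, 24 differed downward with a median of -0.07, and 8 passed an unadjusted p of 0.05, all downward. SBT4.12, a subtilisin-like protease, measured 255.3, 461.5 and 380.9 units in WT_D0 and 196.1, 166.5 and 223.1 in WT_D18 (difference -0.82; limma, adjusted p = 0.16), without overlap. It was called without WT_D0 replicate 1, at -1.05 (limma, adjusted p = 0.021). The serine carboxypeptidase-like gene scpl35 measured 151.5, 186.6 and 266.2 units in WT_D0 and 121.9, 105.6 and 84.1 in WT_D18 (difference -0.84; limma, adjusted p = 0.26). Of 29 expansins and xyloglucan enzymes, 1 was higher and 2 were lower at that p, with a median of -0.05. EXGT-A3, a xyloglucan endotransglucosylase, had the smallest p, with a difference of 0.44 (limma, adjusted p = 0.20). Of 9 microtubule genes, 1 was higher and 1 lower at that p. TUA6, an alpha tubulin, measured 3252, 3567 and 3924 units in WT_D0 and 3115, 3046 and 2836 in WT_D18 (difference -0.25; limma, adjusted p = 0.21). Among 16 sugar transport genes, 2 were higher and 1 was lower at that p. SWEET2, a vacuolar sugar transporter that did not have the smallest p, measured 945.5, 1403 and 547.9 units in WT_D0. In WT_D18 it measured 1287, 2020 and 1435, with overlap (difference 0.78; limma, adjusted p = 0.35).

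Among 51 UDP-glycosyltransferases, which attach sugars to small molecules, 2 were higher and 6 lower at an unadjusted p under 0.05, with a median of 0. UGT73B1 had the smallest p, at 0.48 (limma, adjusted p = 0.16). UGT85A5 and UGT71C1, chosen after their values were seen, had the largest differences of the list. UGT85A5 measured 139.0, 62.7 and 58.2 units in WT_D0 and 141.9, 144.2 and 173.6 in WT_D18, and UGT71C1 measured 29.1, 57.1 and 98.9 units against 25.1, 16.03 and 22.7. Differences of 0.80 and -0.96 did not pass (limma, adjusted p = 0.22 and 0.21). For both, WT_D0 replicate 1 was the array nearest to WT_D18, and without it they were 1.14 and -1.3 and were called (limma, adjusted p = 0.018 and 0.031). The 5 flavonoid genes differed by -0.19 to 0.08, with a median of 0 between the dark times and of 2.09 between WT_R18 and WT_D18.

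Few markers of single cell types had a named probe set: 2 of 6 list entries for root hairs, 3 of 9 for stomata and 1 of 4 for the shoot meristem. The root hair genes EXPA7 and EXPA18 measured 46.2 ± 24.8 and 50.4 ± 2.79 units in WT_D0 and 21.4 ± 1.70 and 40.1 ± 11.3 in WT_D18 (SD, n = 3 each), and their differences of -0.66 and -0.27 had intervals that include 0, while for both genes all WT_D18 arrays lay below all WT_D0 arrays. The part of root hair cells in the results was not tested. SPCH and MUTE, factors of the stomatal lineage, and CLV3, of the shoot meristem, had group means below 0 in both groups. FMA, which acts last in that lineage, was at 29.3 and 29.2 units. With means below 0, SPCH, MUTE and CLV3 were mostly floored at 0 before the test, so it could show little for them. No measured marker had a mean of at least 50 units in both groups. Of the 6 measured markers 0 passed an unadjusted p of 0.05 (limma), which says little about these cell types.

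Some further genes without overlap that did not pass are given as values, chosen after they were seen and not in order of size. AT1G72060 measured 775.0, 416.1 and 465.7 units in WT_D0 and 1170, 1739 and 1147 in WT_D18 (difference 1.29; limma, adjusted p = 0.16). AT5G39520 measured 325.2, 291.8 and 295.7 units in WT_D0 and 573.0, 641.4 and 604.0 in WT_D18 (difference 0.96; limma, adjusted p = 0.12), and its WT_D1 arrays lay at 258.7, 275.1 and 229.5. In red light AT5G39520 was 141.4 ± 19.8 (SD, n = 3), so the late dark arrays were the highest of these 4 groups. AT4G22490 measured 409.3, 607.9 and 637.0 units in WT_D0 and 291.5, 186.7 and 287.5 in WT_D18 (difference -1.06; limma, adjusted p = 0.18). AT2G44300 measured 40.5, 65.0 and 58.6 units in WT_D0 and 14.1, 5.59 and 28.4 in WT_D18 (difference -1.19; limma, adjusted p = 0.18).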

How the data were processed

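The authors deposited 1 intensity per probe set and array on a linear scale. How they were summarised and scaled is not given in the sources used, and detection calls were not used. Of 22810 probe sets 64 were controls, and the other 22746 were tested. Arrays were quantile normalized, values floored at 0, an offset of 16 added and log2 taken, so a log2 change is on the log2(value + 16) scale and understates changes of dim probe sets. Printed levels are normalized intensities before the floor. A model of 7 group means was fitted to the 21 arrays with limma 3.58.1 (R 4.3.3) and Benjamini-Hochberg adjustment, two-sided, and called probe sets at an adjusted p under 0.05. The number of arrays limits the precision.

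Genes were named from the platform annotation, with symbols from RefSeq's TAIR10.1 table. It gave a single gene for 13513 probe sets and more than 1 for 503, and 8730 it does not list. The last 2 kinds stay unnamed. The brightest probe set stood for each of 13350 genes. Named genes were to be the 12 largest called changes in each direction without overlap, plus 4 with a mean under the offset, for which 4 genes qualified. Lists gave called members or the smallest p. Members and lists were chosen with earlier results of these data known, and other genes were named after their values were seen. Alternatives were other scalings, offsets, a dim filter, fewer arrays, each array left out, the replicate number as a block, the 25S rRNA signal as a covariate and array weights. The steps were tested on simulated data. Promoter motifs were not analysed here.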

Additional observations from a re-analysis of the deposited data

Results flagged for a closer look

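For 6 of the 10 called probe sets the change over 18 h in red light differed from the change over 18 h in darkness. This is by the limma test of the difference itself (WT_R18 minus WT_D18, adjusted p under 0.05). Over all probe sets, 7828 of 22746 (34.4%) were called in that test. The 10 were picked by their WT_D18 arrays, which the test uses again, so the selection itself favours a difference. The difference was -1.05 for 262630_at and -0.84 for 259517_at, which rose in darkness and stood near WT_D0 in red light. It was 0.50 for AT1G42960 and 0.83 for 254938_at, which fell in darkness and were above WT_D0 in red light. It was -0.22 for AT3G56480 and -0.17 for AT2G02880, which were lower than WT_D0 in both conditions and lower in red light than in darkness. All 6 differences are on the log2 scale and each rests on 3 arrays against 3.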

How the results depend on the processing

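The count of 10 called between WT_D18 and WT_D0 was 0 without scaling between arrays, with only the 6 arrays compared, with the replicate block in the 9 dark arrays and with a covariate for the 25S rRNA signal. It was 2 among probe sets of at least 50 units, 4 in the 9 dark arrays alone, 6 with an offset of 4, 8 with a common median, 10 with quantiles of the log2 values, 12 with an offset of 64 and 13 with array weights. Leaving out 1 array gave 0 to 575, and using both early dark groups gave 46, an alternative chosen after seeing the data. Same-numbered WT_D0 and WT_D18 arrays deviated together at r of -0.02, 0.26 and 0.05, beside -0.29 to 0.28 for arrays of different number. With 3 arrays a group these values cannot settle whether same-numbered samples belong together, and the main fit did not pair them. For WT_D18 against WT_D1 the count of 12 was 0 without scaling, with only the arrays compared and with the replicate block, 1 in the 9 dark arrays or with the 25S signal, 33 among probe sets of at least 50 units and 545 with array weights, and 0 to 8 with 1 array left out. For WT_D1 against WT_D0 the count of 0 moved only when an array was left out, to 0 to 111, the highest without WT_D0 replicate 1. The cause was not tested where a count moved. No called change of a named gene turned its sign: each of the 10 kept its direction in every setting run, and adjusted p ran from 0.0036 to 1 for 262630_at. Over all single genes computed, 113 gene and setting pairs no longer passed, 52 newly passed and 87 moved by over 1 SD without a call, against 4925 that did not. With 1 array left out, the dark median ran from 0.10 to 0.46 for the late embryogenesis list, 0.12 to 0.18 for carbon starvation, 0.06 to 0.26 for senescence and autophagy, 0.08 to 0.33 for plastid-encoded genes, -0.33 to -0.12 for tetrapyrrole synthesis, -0.44 to -0.11 for the Calvin cycle and -0.11 to -0.05 for proteases. Over all settings the median of all named genes moved by at most 0.008. Probe sets under about 50 units, such as NRPB9A, are limited by signal over background.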
